A study of Rattus norvegicus with 15 samples.

Results

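Gene expression in control mesenteric arteries was compared between SHR, the spontaneously hypertensive rat, inbred for blood pressure that climbs as the animal matures, and the Wistar Kyoto rat (WKY), the normotensive strain usually set beside it. The comparison rests on 7 of the 15 Affymetrix rat arrays of the study, chosen by their titles: 4 of SHR control arteries and 3 of WKY control arteries. The other 8 arrays, 4 per strain, hold collateral arteries, vessels that enlarge to carry extra flow after neighbouring arteries are tied off. They are used here only to set the same strain difference beside the one in control arteries. The study asks what underlies poor growth of collateral arteries in SHR, so the control arteries show how the strains differed in vessels labelled as controls. Strain and vessel type are the only traits the labels give: age, sex, the number of animals and any pooling are not stated, and no blood pressure is given. Whether each array of a group held RNA of its own animal is not said, so every p-value below weighs a difference against the spread between arrays alone, and that spread may be technical.

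The deposited values were MAS5 signals, the linear brightness of a probe set (a group of short probes against 1 transcript) on an array scaled to a common mean. Differences below are SHR minus WKY on the log2 scale, with the standard error from limma, so a negative value is lower in SHR. Whether the probes match SHR and WKY sequence equally well was not tested, so each difference is one of signal. Of 8740 probe sets, 6512 passed a filter on low signal and were tested, and they included 3825 named genes. The 7 control arrays resembled each other, with Spearman correlations between 0.808 and 0.881 over the tested probe sets. Their 3' to 5' signal ratio of actin and Gapdh on the log2 scale, a sign of RNA quality, lay between 1.71 and 2.31 in SHR and between 2.07 and 2.38 in WKY (two-sided exact permutation test, p = 0.343, where the smallest p that 4 against 3 arrays allow is 0.0571). Defining markers of the labelled tissue were bright on all 7 arrays: Acta2, the actin of smooth muscle, read 64241, 93435, 89723 and 100314 in SHR and 56295, 96587 and 104702 in WKY. SHR control 1 had the lowest smooth muscle signal of the SHR arrays and the highest macrophage, red cell and adipocyte signals of all 7, and values without it are given below where it matters. Of the collateral arrays, SHR collateral 3 stood apart, with Spearman correlations of 0.496 to 0.657 with the other 14 arrays.

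A mesenteric artery is a tube of smooth muscle lined by endothelium, the cell layer that meets the blood, and wrapped in an adventitia with fibroblasts, nerves, macrophages and mast cells. Endothelium shows adhesion molecules to passing leukocytes, largely under the transcription factors NF-kB and the interferon regulatory factors. Immediate early genes are transcription factors and feedback regulators that are switched on within minutes by growth factors, stretch, flow or injury, including the handling of tissue. MHC class II molecules, with their invariant chain Cd74, present peptides to T cells and are made mainly by macrophages, dendritic cells and B cells.

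Among the lower genes of smallest p in SHR control arteries were members of the adhesion, NF-kB and immediate early groups, and 5 promoters from these groups are shown because they carry sequence elements known to bind the regulators of those groups. The sequences are the 250 bases before the transcription start from RefSeq, build GRCr8, which is the genome of another rat strain, so they show the reference and not SHR or WKY. Capitals mark a match on either strand. Dusp1 holds a cyclic AMP response element (CRE, TGACGTCA) and Egr2 a CArG box, the element of serum response factor. Vcam1 and Nfkbia hold a kappaB site, the element of NF-kB, and Irf1 holds a kappaB site and a GAS element (TTCNNNGAA), bound by STAT factors.
Dusp1, chr10:17184603-17184852, plus strand: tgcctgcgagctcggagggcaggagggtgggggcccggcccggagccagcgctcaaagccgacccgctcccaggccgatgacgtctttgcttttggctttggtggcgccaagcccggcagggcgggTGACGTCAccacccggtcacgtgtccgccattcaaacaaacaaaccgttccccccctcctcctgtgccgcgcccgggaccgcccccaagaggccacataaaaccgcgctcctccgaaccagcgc
Egr2, chr20:21054442-21054691, minus strand: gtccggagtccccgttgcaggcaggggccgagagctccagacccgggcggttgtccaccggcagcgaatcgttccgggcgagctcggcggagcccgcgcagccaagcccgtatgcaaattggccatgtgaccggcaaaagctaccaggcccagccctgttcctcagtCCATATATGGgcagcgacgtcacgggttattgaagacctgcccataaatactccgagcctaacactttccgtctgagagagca
Vcam1, chr2:206742784-206743033, minus strand: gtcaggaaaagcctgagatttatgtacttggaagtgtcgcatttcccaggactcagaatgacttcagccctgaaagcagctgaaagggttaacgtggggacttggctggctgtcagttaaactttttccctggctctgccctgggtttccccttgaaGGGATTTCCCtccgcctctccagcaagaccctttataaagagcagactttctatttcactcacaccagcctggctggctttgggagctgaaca
Irf1, chr10:38417685-38417934, plus strand: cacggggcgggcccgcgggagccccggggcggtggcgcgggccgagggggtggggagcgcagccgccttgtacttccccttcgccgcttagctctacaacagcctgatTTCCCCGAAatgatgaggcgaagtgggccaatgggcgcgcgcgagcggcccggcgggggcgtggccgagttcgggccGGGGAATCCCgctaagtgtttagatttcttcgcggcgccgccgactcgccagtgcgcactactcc
Nfkbia, chr6:78597073-78597322, minus strand: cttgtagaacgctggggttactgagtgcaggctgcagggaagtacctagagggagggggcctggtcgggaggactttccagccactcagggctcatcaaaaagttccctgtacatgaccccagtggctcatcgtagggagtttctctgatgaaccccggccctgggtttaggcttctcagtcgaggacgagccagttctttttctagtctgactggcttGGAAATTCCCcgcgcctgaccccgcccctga

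The kappaB site was present in 6.41% of all 27457 promoters of the same length, the GAS element in 7.52%, the CArG box in 1.5%, the CRE in 1.7% and an AP-1 site (TGANTCA) in 6.36%. Among the 17 immediate early genes lower in SHR at an unadjusted p under 0.05, 11 had a promoter in the table, of which 3 held a CArG box, 2 a kappaB site and 1 a CRE, while 0 held an AP-1 site. Among the 9 such genes of the adhesion and NF-kB groups, 7 had a promoter, of which 3 held a kappaB site and 3 a GAS element. Nfkbia is among both the 17 and the 9, so its kappaB site is counted in each. For all tested members of the same groups, of 25 adhesion and NF-kB promoters 8 (32.0%) held a kappaB site and 6 (24.0%) a GAS element, and of 32 immediate early promoters 5 (15.6%) held a CArG box and 3 (9.38%) a kappaB site. Among the promoters of all tested genes 8.57% held a kappaB site, 6.06% a GAS element and 1.62% a CArG box. A match is a stretch of letters in this window and says nothing about binding in these arteries. The letters of 1 element can lie within another, and each element was counted on its own.

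Across the whole array, few differences passed the test. After Benjamini-Hochberg adjustment in limma, 2 of 6512 probe sets passed at 0.05, both lower in SHR, a share of 0.0307%, and the third smallest adjusted p was 0.114. Unadjusted p-values under 0.05 were found for 421 probe sets (6.46%, where chance would give 325.6), 242 higher (3.72%) and 179 lower (2.75%). Taking 1 probe set per gene, 142 of 3825 genes were higher in SHR at that level (3.71%) and 103 lower (2.69%), and the strains' values did not overlap for 196 higher genes (5.12%) and 145 lower genes (3.79%). The median difference over all genes was 0.013. These counts of genes moved most without SHR control 1 (86 higher), without WKY control 3 (56 lower) and without SHR collateral 3, which enters the spread (202 higher and 159 lower). The counts below are read against these shares, and every gene described after Ptprj and Icam2 missed the adjusted threshold. With 7 arrays the median standard error was 0.54, and in simulated data with these spreads the test recovered 8.4% of probe sets shifted by 1 on the log2 scale, 49.2% of those shifted by 2 and 74.4% of those shifted by 3.

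Ptprj and Icam2 fell below WKY in SHR control arteries. Ptprj, a receptor tyrosine phosphatase that dampens growth factor receptor signalling, had signals of 67.2, 115, 62.3 and 64.7 in SHR control arteries 1 to 4 and 909, 481 and 1334 in WKY control arteries 1 to 3. All SHR arrays lay below all WKY arrays, and 3 of the 4 SHR values were below their own array's 20th percentile, so they are near the dim end of the array. No SHR control value reached its array's 40th percentile, so the probe set was tested mainly through WKY arrays and no fold is given. The fitted difference was -3.48 ± 0.57 (adjusted p = 0.0434). Icam2, an adhesion molecule kept on resting endothelium and platelets, read 263, 189.9, 404 and 53.1 in SHR and 2331, 1788 and 2640.1 in WKY, again with no overlap and with 1 SHR array below its 20th percentile. Its difference was -3.62 ± 0.61 (adjusted p = 0.0434), and each of these genes has 1 tested probe set. Leaving out WKY control 1, 2 or 3 ended both calls, with an adjusted p of 0.337 for both without WKY control 3. So did leaving out SHR control 1 (adjusted p = 0.0724 for Icam2, 0.0811 for Ptprj), SHR control 2, SHR collateral 2 or WKY collateral 1, 2 or 3, the collateral arrays entering through the shared estimate of spread. Icam2 alone lost its call without SHR collateral 1, and Ptprj alone without SHR control 3 or WKY collateral 4. With the 3' to 5' ratio as a covariate the adjusted p was 0.0606 for both, while the differences stayed between -4.01 and -2.66 under all alternatives.

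Adhesion molecules that inflammation induces stood in the same direction as Icam2. Vcam1, which holds monocytes and lymphocytes to activated endothelium, read 7938, 4131, 1868 and 2169.7 in SHR and 34710.2, 12962 and 24901 in WKY. The highest SHR value lay below the lowest WKY value, and the difference was -2.72 ± 0.67 (adjusted p = 0.176), with a second probe set at -1.78. Icam1, the partner of leukocyte integrins, read 5208, 3136, 2369 and 1498 against 12828, 5371 and 10188, a difference of -1.69 ± 0.45 (adjusted p = 0.251) with no overlap. A dimmer probe set of Icam1 stood at -0.56. Selp, the P-selectin that lets leukocytes roll, differed by -1.45 ± 0.61 (adjusted p = 0.684). Cx3cl1, the membrane-bound chemokine fractalkine, differed by -0.93 ± 0.34, with -3.49 and -1.07 on its other 2 probe sets. The chemokine Ccl2 overlapped between strains at 17612, 12530.4, 6859 and 3671 in SHR and 23417, 10021 and 10163 in WKY. Of 17 tested members of the list of adhesion molecules and chemoattractants, 5 were lower at an unadjusted p under 0.05 and 0 higher, with a median of -0.18. The 5 became 3 without WKY control 1 or WKY control 3. The median was -0.0013 without WKY control 1, -0.35 without SHR control 1, -0.38 without WKY control 2 and -0.44 with a 60th percentile filter.

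Other endothelial markers did not all stand in that direction. The summed signal of 13 endothelial markers was 7596 to 8855 on the SHR arrays and 10205 to 13599 on the WKY arrays, without overlap. Icam2 and Selp are themselves in that sum. With the Icam2 signals given above taken out, SHR control 3 would lie above WKY control 2, so the separation depends on Icam2. Pecam1, a junction protein of all endothelium, differed by 0.73 ± 0.44 and Nos3, endothelial nitric oxide synthase, by -0.67 ± 0.60, the other 4 probe sets of Nos3 lying between -0.38 and 1.22. Of the 13 markers, 3 were lower (Icam2, Selp and the vasoconstrictor Edn1 at -1.48 ± 0.67) and 0 higher at an unadjusted p under 0.05, with a median of -0.26. Without SHR control 4, WKY control 1 or WKY control 3, 1 marker was lower. In whole arteries fewer cells of a type and less RNA per cell cannot be told apart. Whether endothelial content had a part in the adhesion molecule differences was not tested.

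Some genes of the NF-kB and interferon regulatory pathways stood below WKY in SHR beside the adhesion molecules. Irf1, a transcription factor induced by interferon gamma and tumour necrosis factor, read 1643, 1635, 947 and 1306 in SHR and 6751, 3718 and 6634 in WKY. The WKY arrays were all above the SHR arrays, with a difference of -2.03 ± 0.43 (adjusted p = 0.114), and a dimmer probe set stood at -0.80. Nfkbia, the inhibitor that NF-kB induces to limit itself, read 5411, 6985, 7001 and 1475 against 12356, 7540.0 and 12206, a difference of -1.23 ± 0.49. Its lowest value, on SHR control 4, was far below the other 3 SHR arrays. Nfkb1, the p105 and p50 subunit, differed by -0.96 ± 0.41 and did not overlap, and Irf8, a factor of myeloid cells, by -1.05 ± 0.44 with overlap. Of 16 tested members of the NF-kB, IRF and STAT list, 4 were lower at an unadjusted p under 0.05 and 0 higher, with a median of -0.35. The count was 2 without SHR control 4 or WKY control 1 and 1 without WKY control 3.

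**Figure D1:**
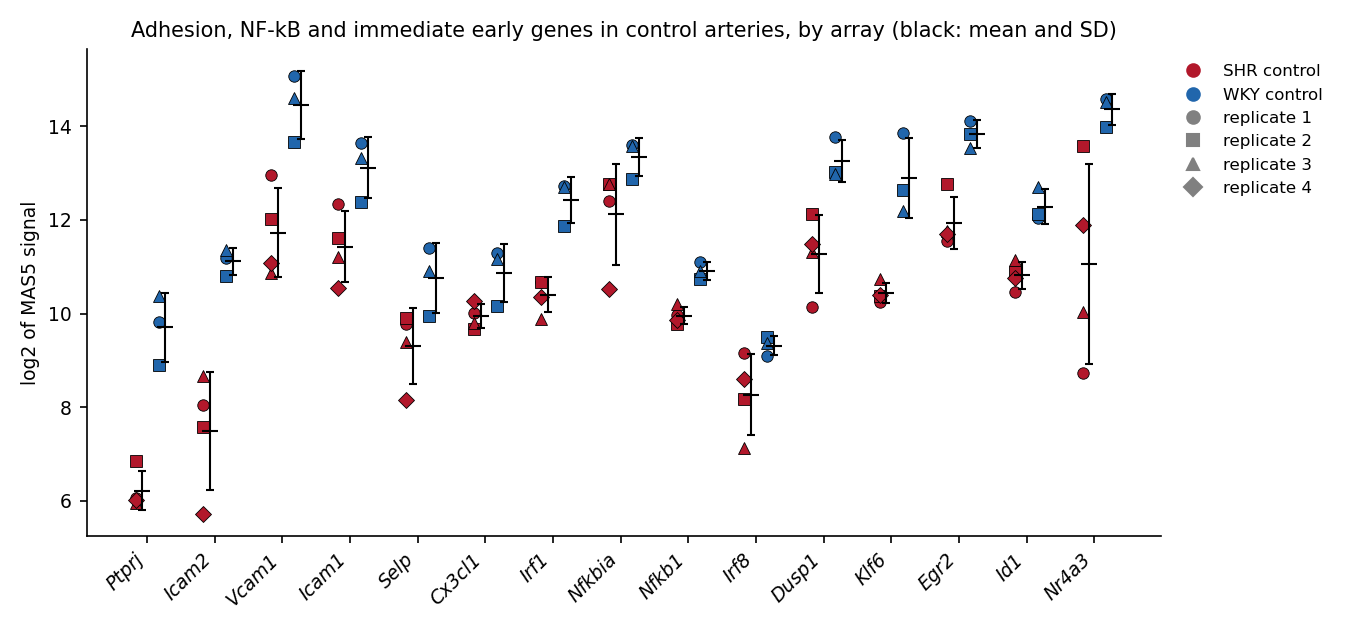
Log2 of the MAS5 signal of 15 genes on each of the 7 control arrays, SHR in red and WKY in blue, with the marker shape giving the replicate number and black bars the mean and SD. Ptprj and Icam2, at the left, have the largest mean differences of the 15, and SHR values overlap WKY values only for Irf8 and Cx3cl1.

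Most immediate early genes stood below WKY in SHR control arteries. Of 26 tested transcription factors in that list, 23 lay below 0 and 12 were lower at an unadjusted p under 0.05, against 2.69% of all genes, while 0 were higher. Their median difference was -0.85. Of 16 tested early regulators that are not transcription factors, 13 lay below 0 and 5 were lower, with a median of -0.50. Nfkbia is in this list and in the NF-kB list, so it is counted in both. Without SHR control 1 the counts were 11 of 26 and 3 of 16, when 78 of all 3825 genes were lower. Over all arrays left out in turn the lower transcription factors numbered 8 to 13 and the other regulators 2 to 5, with 3 without SHR control 4 or WKY control 3 and 2 without WKY control 1.

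Klf6, a zinc finger factor induced by vessel injury, read 1218, 1335, 1705 and 1349 in SHR and 14734, 6374 and 4696 in WKY. The SHR arrays were close together and the lowest WKY array was well above them, a difference of -2.45 ± 0.52 (adjusted p = 0.114). Egr2, a serum-response zinc finger factor, read 2981, 6936, 3486 and 3303 against 17792, 14636 and 11807 and differed by -1.89 ± 0.42 (adjusted p = 0.125) with no overlap. Id1, an inhibitor of basic helix-loop-helix factors downstream of BMP receptors, read 1411, 1904, 2265 and 1741 against 4194, 4454 and 6682, a difference of -1.47 ± 0.33, while its dimmer probe set stood at -0.01. Nr4a3, an orphan nuclear receptor, was the most uneven: it read 423, 12314, 1045 and 3829 in SHR and 24591, 16182 and 23545 in WKY. Its WKY arrays agreed within a narrow range and SHR control 1 and 3 lay far below SHR control 2, so that the difference of -3.30 ± 0.84 carries a wide error.

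The AP-1 subunits Jun and Fos, and Egr1 and Nr4a1, were looked at after their values were seen, as they fall outside the rule for naming genes. Jun had 4 tested probe sets, at -2.18 for the brightest and -2.68, -2.37 and -1.53 for the others. Fos stood at -1.31, with -1.70 and -1.08 on its other probe sets. Egr1 stood at -1.29 on the brightest of its 4 probe sets, with -1.90, -1.12 and -0.16 on the others. Nr4a1, a close relative of Nr4a3, read 3406, 25194, 9380.3 and 9109 in SHR and 38073, 31518 and 31639 in WKY and differed by -1.86 ± 0.64, its SHR control 2 value lying near the WKY range.

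Among the feedback regulators, Dusp1, which removes phosphate from MAP kinases, read 1129.9, 4475, 2556 and 2880.2 in SHR and 13978, 8366 and 8026 in WKY. The groups did not overlap, and the difference was -1.99 ± 0.41 (adjusted p = 0.114), with -0.82 and -0.79 on 2 dimmer probe sets. Arc, best known as a synaptic early gene, differed by -1.53 ± 0.36 and Ccn1, a secreted matrix protein induced by stretch, by -1.85 ± 0.75. SHR control 1 had the lowest SHR signal of Dusp1, Nr4a3, Ccn1, Arc, Id1, Klf6 and Egr2. Without that array the differences were -1.61 for Dusp1, -2.52 for Nr4a3, -2.39 for Klf6 and -1.76 for Egr2.

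**Figure D2:**
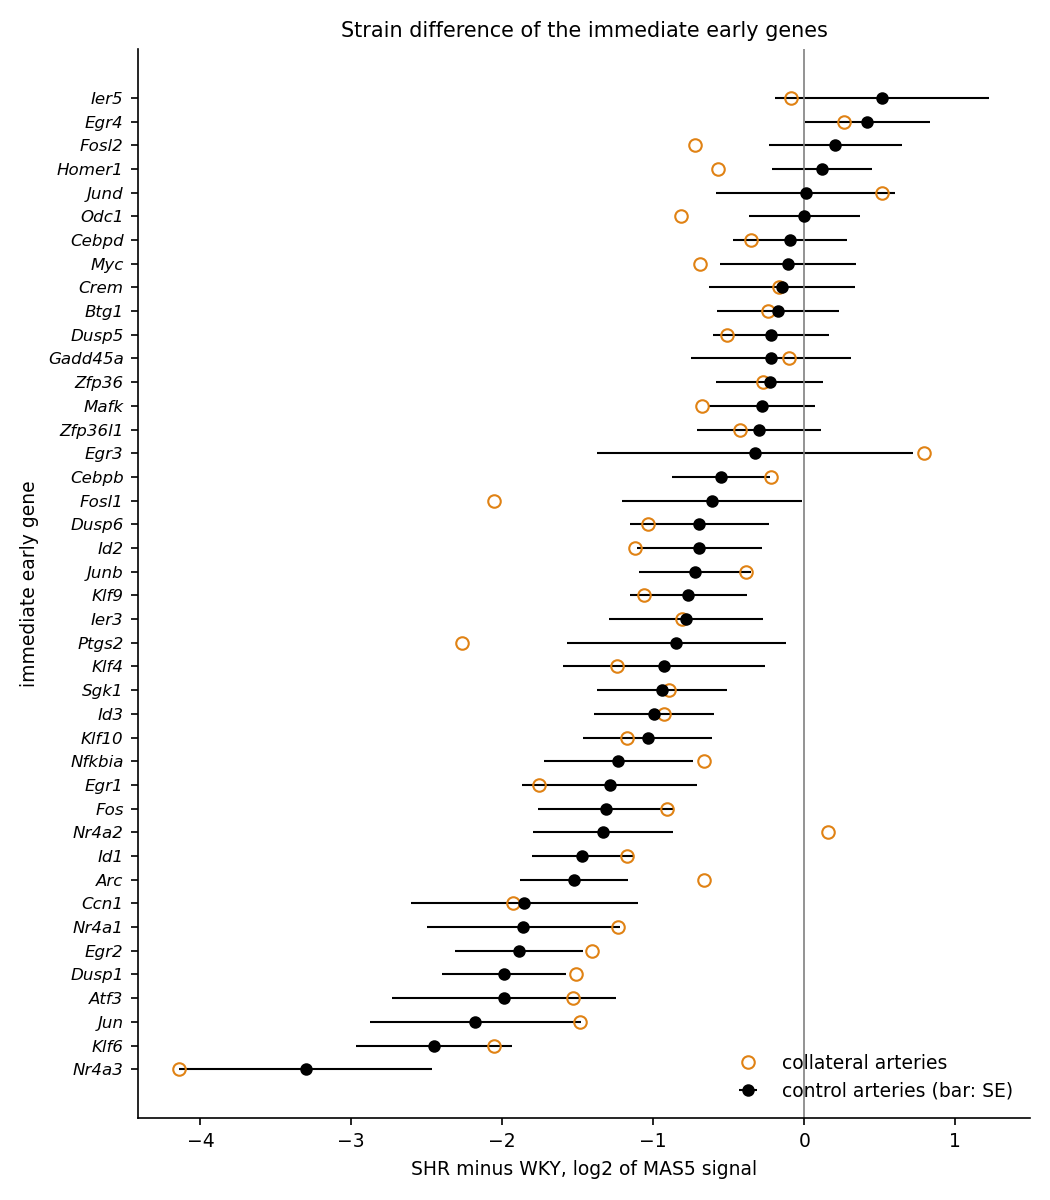
Strain difference, SHR minus WKY on the log2 scale, of the 42 tested immediate early genes in control arteries (black, bars are the standard error) and in collateral arteries (open orange circles). Most points lie left of 0 in both vessel types, from Nr4a3 at -3.30 in control arteries up to a few genes at or above 0.

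MHC class II genes were among those furthest above WKY in SHR. RT1-Da, the alpha chain of the rat class II molecule D, read 9118, 3834, 2679 and 659 in SHR and 666, 233 and 77 in WKY. The strains touched only where SHR control 4 lay at the level of WKY control 1, the difference was 3.62 ± 0.72 (adjusted p = 0.114), and a second probe set gave 2.90 with no overlap. Cd74 read 2875, 991, 1220.5 and 255 against 41.2, 254 and 46.5, a difference of 3.63 ± 0.90 (adjusted p = 0.176), with 1.23 and 3.36 on its other probe sets. On 2 arrays the WKY value of Cd74 was below that array's 20th percentile, which leaves its fold loosely set. RT1-DMb, which helps to load peptides, differed by 2.16 ± 0.64. These 3 of 8 tested class II genes were higher at an unadjusted p under 0.05, 0 were lower, the other 5 lay between -0.014 and 1.02, and the median was 0.94 (0.44 without WKY control 2 and 1.46 without WKY control 3).

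The class II values were graded within SHR: SHR control 1 was the highest and SHR control 4 the lowest for RT1-Da, Cd74 and RT1-DMb. The summed adipocyte signal had the same highest and lowest SHR arrays, at 90997, 29246, 71657 and 9654 on SHR control 1 to 4. It was 45304, 24935 and 12102 on WKY control 1 to 3. The summed macrophage and red cell signals were also highest on SHR control 1 and lowest on SHR control 4 among the SHR arrays. On SHR control 1 to 4 they were 71407, 30057, 42117 and 28026 for macrophages and 29524, 10532.5, 8880.5 and 6184 for red cells. Whether attached fat had a part in the class II differences was not tested. Without SHR control 4 the difference of RT1-Da passed adjustment, at 4.31 (adjusted p = 0.00609). Without SHR control 1 the difference was 3.05 for RT1-Da (unadjusted p = 3.60e-04) and 3.10 for Cd74 (unadjusted p = 0.0038), and 3 class II genes were then again higher, against 5 without WKY control 3. Class I genes showed no common direction: of 13 tested, 4 were higher and 1 lower, with a median of 0.044 that turned negative without SHR control 1 or without WKY control 2. Without WKY control 3, 2 class I genes were higher. RT1-CE16 differed by 1.43 ± 0.38, and by 1.85 without SHR control 4 (adjusted p = 0.0205). RT1-A3, below the 40th percentile on all 3 WKY control arrays, stood at 1.83 ± 0.63, the immunoproteasome subunit Psmb8 at 1.03 ± 0.43 and RT1-S3 at -0.77 ± 0.34. RT1 genes have near-identical copies, so a probe set can read several of them and their single levels are uncertain.

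Several markers of macrophages and mast cells stood above WKY in SHR beside the class II genes. Lyz2, the lysozyme of macrophages and granulocytes, read 34765, 5189, 8285 and 2611 in SHR and 3578, 1420.2 and 1103 in WKY. SHR control 1 was far above every other array and SHR control 4 lay within the WKY range, so that the difference of 2.15 ± 0.69 became 1.44 without SHR control 1. C1qb, a complement chain made by macrophages, read 3136, 1778, 3828 and 606 against 518, 776 and 209 and differed by 2.12 ± 0.68. Of 12 tested macrophage markers 10 lay above 0, but only these 2 passed an unadjusted p under 0.05, and the median was 0.79, or 0.47 without SHR control 1. Without SHR control 4, 4 macrophage markers were higher. The summed signal of 14 macrophage markers was 28026 to 71407 in SHR, SHR control 1 being the highest, and 24686 to 27893 in WKY. Its part in the class II differences was not tested.

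Cma1, a mast cell chymase, read 2352, 1381, 3824 and 1341 in SHR and 626, 1078 and 768 in WKY, with no overlap and a difference of 1.33 ± 0.39. Mcpt1l1, a related mast cell protease, differed by 1.19 ± 0.42. These were the 2 of 6 tested mast cell markers at an unadjusted p under 0.05, with a median of 0.89 over the 6. The count was 1 without SHR control 3 and 3 without SHR control 4, WKY control 1 or WKY collateral 3. The summed mast cell signal was 7440 to 17573 in SHR and 4867 to 7447 in WKY. Lyve1, a hyaluronan receptor of lymphatic endothelium and of some macrophages in artery walls, read 2542, 1517, 2329.6 and 1661 against 824, 774 and 411, a difference of 1.62 ± 0.39 (adjusted p = 0.157) with no overlap.

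Haemoglobin transcripts, which come from immature red cells in blood, were brightest on SHR control 1. Hbb, a beta globin, read 19849.5, 5882, 5155 and 2776 in SHR and 4084, 1373 and 1241 in WKY, with overlap and a difference of 1.74 ± 0.76. Without SHR control 1 it was 1.20 (unadjusted p = 0.129). Hbb-b1, a near copy that may share signal, differed by 1.24 ± 0.50. These 2 of 4 tested red cell markers had an unadjusted p under 0.05, and 0 did without SHR control 1, WKY control 2 or WKY control 3. The other 2 lay below 0, the lowest at -0.87, so the list had no common direction. The summed red cell signal was 6184 to 29524 in SHR and 3851 to 7627 in WKY.

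Hmox1, heme oxygenase 1, an enzyme that breaks down heme, read 3943, 1425, 2940.2 and 1825 in SHR and 548, 810.3 and 595 in WKY. Every SHR array was above every WKY array, with a difference of 1.87 ± 0.46 (adjusted p = 0.176), and 1.62 without SHR control 1. Blvra, the biliverdin reductase of the next step, read 1931, 1745, 1701 and 1808 against 1039, 824 and 931, 2 narrow groups that differed by 0.95 ± 0.26. Cyba, the p22phox subunit of NADPH oxidase, differed by 1.70 ± 0.59 with overlap, and Sod3, the extracellular superoxide dismutase, by 1.15 ± 0.50. Sod2, the mitochondrial superoxide dismutase, stood at -0.68 ± 0.42, a difference that missed even the unadjusted threshold. Of 21 oxidant and antioxidant genes, Hmox1, Cyba and Sod3 were the 3 higher at an unadjusted p under 0.05 and 0 were lower, with a median of 0.21. Without WKY control 3, 1 was higher. Apoe, a lipid carrier abundant in macrophages, differed by 1.68 ± 0.46 (adjusted p = 0.267) with no overlap.

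**Figure D3:**
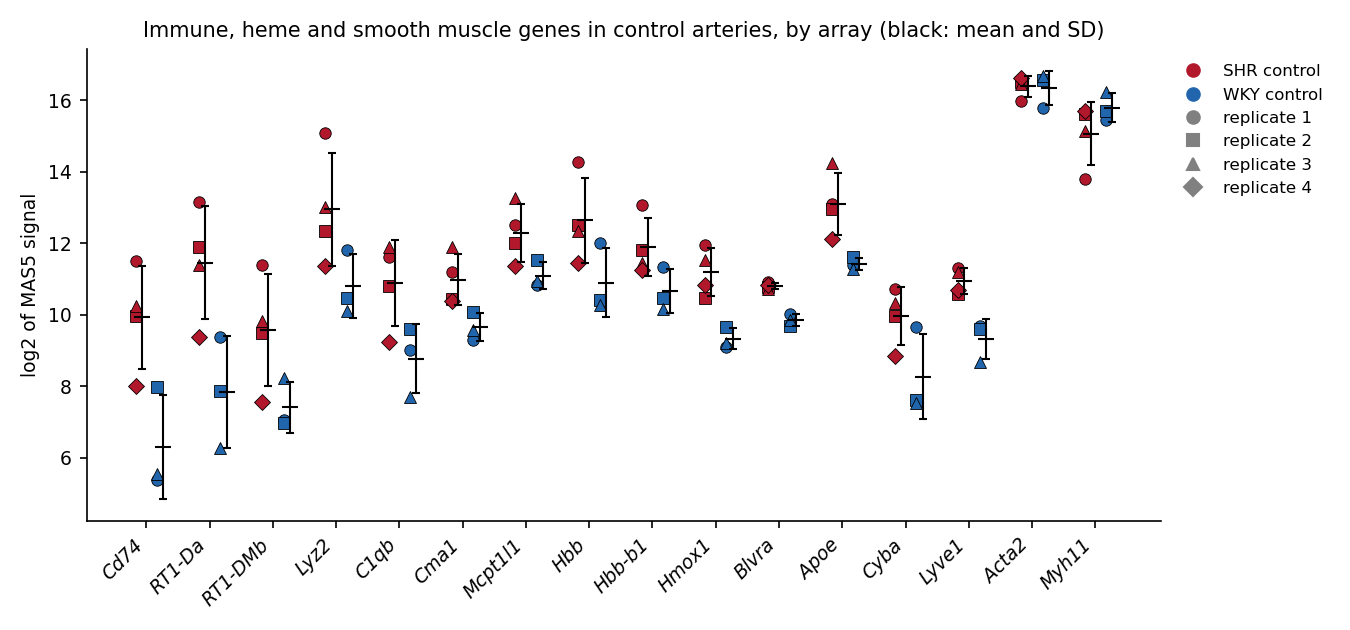
Log2 of the MAS5 signal of 16 immune, heme and smooth muscle genes on each of the 7 control arrays, SHR in red and WKY in blue, with the marker shape giving the replicate number and black bars the mean and SD. SHR control 1 (circle) is the highest array for Lyz2, Hbb and RT1-Da, while Blvra and Hmox1 separate the strains and Acta2 does not.

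Smooth muscle genes differed little between strains, apart from SHR control 1. Acta2 differed by 0.049 ± 0.39. Myh11, the smooth muscle myosin, read 14163, 50003, 36026 and 53624 in SHR and 44886, 52918 and 76803 in WKY, the low value on SHR control 1 setting most of its difference of -0.73 ± 0.59. Without that array it was -0.31. Of 17 contractile genes, only Myl6, a myosin light chain, passed an unadjusted p under 0.05 (-0.71 ± 0.31), and the median of -0.24 turned to 0.078 without SHR control 1. The summed smooth muscle signal was 228848 on SHR control 1, 394092 to 476778 on the other SHR arrays and 320704 to 464746 in WKY.

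Nerve and Schwann cell markers went both ways. Of 19 tested, 2 were higher and 0 lower at an unadjusted p under 0.05, 8 lay below 0, the lowest at -1.11, and the median was 0.19. The myelin genes Mbp and Pmp22, the 2 higher ones, differed by 1.92 ± 0.74 and 0.70 ± 0.31. Mbp was below the 40th percentile on every WKY array of both vessel types. It was therefore tested only through SHR arrays, and its difference is set against a dim signal. Syp, a gene outside that list that encodes a synaptic vesicle protein, read 518, 293, 374 and 752 in SHR and 115, 68.2 and 112 in WKY, a difference of 2.25 ± 0.51 (adjusted p = 0.125) with no overlap, and it too was below the 40th percentile on all 3 WKY control arrays. The summed nerve and Schwann cell signal, without Syp, was 16895 to 22321 in SHR and 13954 to 15247 in WKY. For other tissue that could come with a dissected artery, adipocyte markers summed to 9654 to 90997 in SHR and 12102 to 45304 in WKY, and 15 pancreatic acinar markers to 1488 to 2875 in SHR and 1621 to 3638 in WKY, with 4 of them below the 20th percentile on all 7 arrays.

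Genes that set vessel tone showed few differences. Entpd2, an enzyme of the cell surface that breaks down extracellular ATP, read 4895, 5667, 8506 and 4832 in SHR and 1559.6, 2977 and 2176 in WKY. The strains did not overlap, the difference was 1.43 ± 0.30 (adjusted p = 0.114), and its second probe set stood at 2.25. Of 15 tested genes of nitric oxide and cyclic GMP signalling, 0 had an unadjusted p under 0.05, 10 lay below 0 and the median was -0.53. Without SHR control 4, 2 were lower and the median was -0.22, 1 was lower without WKY control 1 or SHR collateral 3, and leaving out SHR control 2, SHR control 3 or WKY control 2 gave 1 higher gene, the last with a median of -0.28. The 2 subunits of soluble guanylyl cyclase, the receptor of nitric oxide, differed by -0.70 ± 0.45 for Gucy1a1 and -0.83 ± 0.44 for Gucy1b1. In the renin-angiotensin system 0 of 8 genes had an unadjusted p under 0.05, the receptor Agtr1a standing at 0.69 ± 0.59 and the converting enzyme Ace at -0.24 ± 0.45. The dimmer probe sets of Agtr1a stood at 0.98 and 0.48, the latter with no overlap. Of 20 endothelin, prostanoid and peptide genes, Edn1 alone had an unadjusted p under 0.05.

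Ion channel genes went both ways. Of 23 tested, 2 were higher and 2 lower at an unadjusted p under 0.05, with a median of -0.014. There were 4 lower without SHR collateral 3, 1 lower without WKY control 2, 1 higher without SHR control 3, and 1 of each without SHR control 4 or WKY control 3, while the median lay between -0.20 and 0.16 with 1 array left out. Kcnd3, a fast potassium channel, read 241, 354, 518 and 173 in SHR and 60.3, 72.4 and 80.6 in WKY, with no overlap and a difference of 2.07 ± 0.64. Every WKY value was below its array's 40th percentile, so the probe set was tested through SHR arrays, and the size of the difference is not well measured. Itpr3, a calcium release channel, differed by 0.63 ± 0.25. Cacnb2, a subunit of voltage-gated calcium channels, differed by -1.16 ± 0.39, and Slc8a1, the sodium-calcium exchanger, by -1.39 ± 0.59, with -0.80, -0.18, -0.18 and 0.43 on its other 4 probe sets. Gja5, connexin 40 of endothelial gap junctions, read 5144, 4233, 3229 and 3784 against 11507, 10561 and 11569.8 and differed by -1.47 ± 0.47 on its brightest probe set, but stood at 0.042 and 0.63 on 2 dimmer ones.

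Some matrix genes stood below WKY in SHR. Sdc4, a cell-surface proteoglycan, read 10039.8, 22798, 13307 and 11286 in SHR and 27341, 33288 and 29563 in WKY, with no overlap and a difference of -1.14 ± 0.31, and its other probe sets stood at -1.16 and 0.081. Fmod, a collagen-binding proteoglycan, differed by -1.36 ± 0.50 on its brighter probe set and 0.20 on the dimmer, Lamb2, a laminin of basement membranes, by -0.97 ± 0.39, and Lox, which cross-links collagen and elastin, by -0.84 ± 0.38. These 4 of 25 tested matrix genes were lower and 0 higher at an unadjusted p under 0.05. SHR control 1 had the lowest signal of all 4, and without it 1 matrix gene was lower and the list's median moved from -0.11 to 0.065. The lower matrix genes numbered 1 without WKY control 2 and 2 without WKY control 3.

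Among proteases and their inhibitors, Cstb, a cytosolic cathepsin inhibitor, was even within each strain at 9810.2, 7911, 10015 and 9149.6 in SHR and 4789.7, 5047 and 4809.6 in WKY. Its difference was 0.91 ± 0.21 (adjusted p = 0.136), and its dimmer probe set gave 0.91. Cst3, the secreted relative, went the other way at -0.92 ± 0.31. The metalloprotease inhibitor Timp1 differed by 0.65 ± 0.26 and the lysosomal cathepsin Ctsb by 0.74 ± 0.33. Of 19 tested genes of this group 3 were higher and 1 lower at an unadjusted p under 0.05, with a median of 0.27. Without SHR control 1, WKY control 2 or WKY control 3, 1 was higher. In the clotting system, Plaur, the urokinase receptor, differed by 1.30 ± 0.43 and F2r, the thrombin receptor, by -1.13 ± 0.37, neither with overlap.

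In growth signalling, the insulin-like growth factor binding proteins Igfbp3, Igfbp5 and Igfbp6 were higher at 1.00 ± 0.45, 2.02 ± 0.71 and 0.92 ± 0.32, and the ligand Igf2 was lower at -1.20 ± 0.48 on its brightest probe set, with -0.25, -0.16 and 0.26 on 3 others. Of 19 cell cycle genes, 4 were higher and 0 lower at an unadjusted p under 0.05, with a median of 0.42: Cdk1, which drives mitosis, at 2.09 ± 0.87, Cdk4, which acts before DNA synthesis, at 0.83 ± 0.33, the replication helicase subunit Mcm6 at 0.79 ± 0.34 and the tubulin regulator Stmn1 at 1.20 ± 0.52. All 4 overlapped between strains, and 0 cell cycle genes passed without SHR control 1, the array with the highest Cdk1, Mcm6 and Stmn1. Without SHR control 3, WKY control 2 or WKY control 3, 1 passed, and without SHR control 2, 2 did. Of 37 ribosomal protein genes, 28 lay above 0 and 0 had an unadjusted p under 0.05, with a median of 0.20, while 5 did without SHR collateral 3 and 3 without SHR collateral 4 or SHR control 4. The strains did not overlap for 7 higher and 0 lower of the 37, against 5.12% higher and 3.79% lower over all genes. Of 11 fibroblast markers, Igfbp6 was higher and Fmod lower, with a median of 0.25.

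Further genes stood out by rank rather than group. Among detoxification enzymes, the glutathione transferases Gstm1 and Gstt2 went opposite ways at 0.99 ± 0.33 and -1.46 ± 0.50, and Fmo1, a flavin monooxygenase, stood at 2.15 ± 0.66. Among tyrosine phosphatases other than Ptprj, Ptprm, which joins neighbouring cells, differed by -1.12 ± 0.31 and Ptpro by 1.49 ± 0.60. The clock output factor Dbp read 826, 1181, 1940.1 and 1486 in SHR and 565, 169 and 57.7 in WKY, a difference of 2.88 ± 0.88, while its second probe set stood at 0.73. The clock repressor Bhlhe40 differed by -0.97 ± 0.35. The lower genes of smallest p with no overlap also held Arhgap1 at -2.10 ± 0.48 (its other probe set at -0.21) and Anapc16, a subunit of the anaphase-promoting complex, at -1.11 ± 0.27. Arhgap1 passed adjustment without SHR control 3, its one high SHR array, at -2.62 (adjusted p = 0.0213). The higher ones also held Trim3 at 1.91 ± 0.51, Prrg1 at 1.80 ± 0.49, the dUTPase Dut at 1.02 ± 0.31, the nuclear receptor Nr2f1 at 1.77 ± 0.54, the phosphoribosyl pyrophosphate synthetase Prps2 at 2.16 ± 0.65 and the cytoskeletal adducin Add3 at 1.18 ± 0.36, whose second probe set stood at -0.11. The other 22 gene lists, with 18 higher and 7 lower places among 319 tested, had medians between -0.26 and 1.08, the latter for 2 lymphatic markers.

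**Figure D4:**
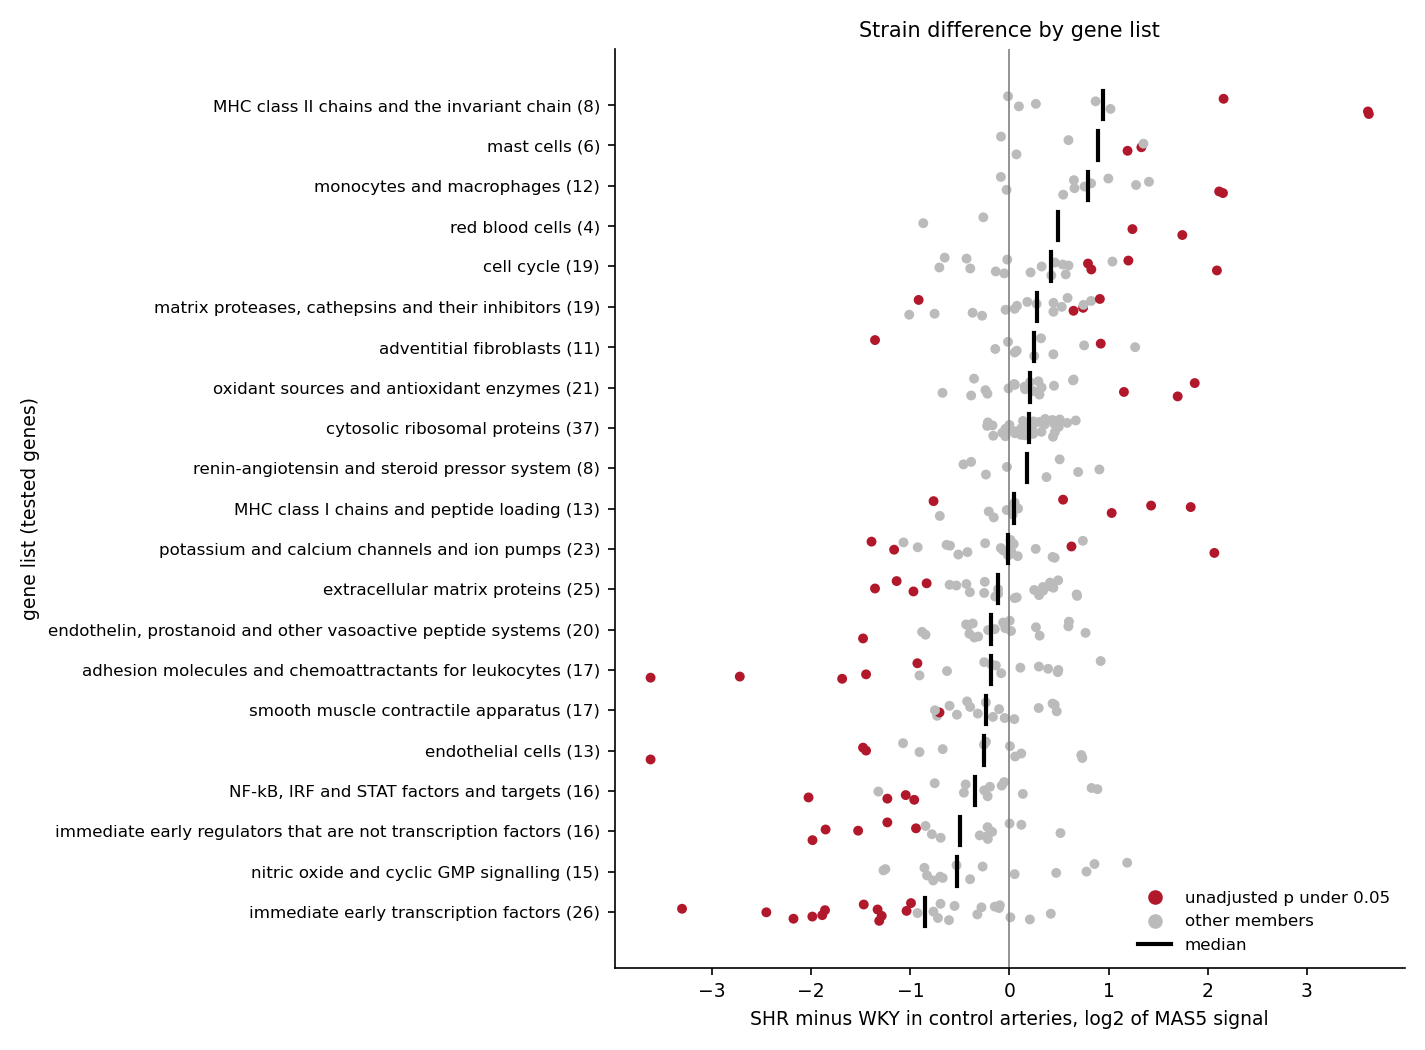
Strain difference in control arteries of the tested members of 21 gene lists, 1 point per gene, red at an unadjusted p under 0.05, with the list's median as a black bar and the number of tested genes in parentheses. Immediate early transcription factors have a median of -0.85 and MHC class II genes one of 0.94, which was 0.44 without WKY control 2 and 1.46 without WKY control 3.

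The collateral arteries, which share no array with the control arteries, gave the strain difference a further reading, although the labels do not say whether they came from the same animals. Among the 142 genes higher in SHR control arteries at an unadjusted p under 0.05, 127 (89.4%) were also higher in SHR collateral arteries, where 55.7% of all genes were, and 44 had an unadjusted p under 0.05 there, a level at which 3.71% of all genes were higher. Among the 103 lower genes, 84 (81.6%) were also lower, against 44.3% of all genes, and 42 of them had an unadjusted p under 0.05, against 4.05% of all genes. Both p-values use 1 estimate of spread per gene over all 15 arrays, so a gene with a small spread passes more easily in both, and the shares of all genes are not what no difference would give. In neither set was a gene opposite at that level. The median difference was smaller in collateral arteries, at 0.58 against 1.20 for the higher genes and -0.68 against -1.31 for the lower ones, and the genes had been chosen on the control arteries. In the collateral arteries 0 probe sets passed adjustment in limma (smallest adjusted p = 0.0783), while 496 (7.62%) were below 0.05 before adjustment. Without SHR collateral 3, 128 of the 142 higher genes (90.1%, against 48.9% of all genes) and 94 of the 103 lower ones (91.3%, against 51.1%) kept their direction in collateral arteries. For some early genes WKY control 1 and WKY collateral 1 were the highest WKY arrays, as for Jun (14663 and 7057) and Ccn1 (16460 and 12124). Fos was highest on WKY control 1 but not on WKY collateral 1. The shares were not taken again without these arrays.

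Ptprj read 244, 71.4, 143 and 46.6 in SHR collateral arteries 1 to 4 and 886, 761, 699.9 and 509.7 in WKY collateral arteries 1 to 4, again with no overlap, a difference of -2.75 ± 0.53 (unadjusted p = 6.20e-05, adjusted p = 0.0783). Icam2 read 445, 443, 824 and 215 against 2643, 1738, 2590.3 and 672, with overlap and a smaller difference of -1.96 ± 0.57 (unadjusted p = 0.00284). Nr4a3 stood at -4.14 ± 0.78, with an adjusted p of 0.0783. Klf6, Egr2, Id1 and Dusp1 stood at -2.06, -1.41, -1.17 and -1.51, Vcam1 at -2.07 and Irf1 at -1.29. On the higher side Cd74 stood at 3.42, RT1-Da at 2.42, Hmox1 at 1.69, Lyve1 at 1.45, Entpd2 at 0.96 and Cstb at 0.72. Without SHR collateral 3 the collateral difference was -2.91 for Ptprj, -2.27 for Icam2, -3.76 for Nr4a3 and 3.15 for Cd74.

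The strains' values did not overlap in the same direction in both vessel types for 22 lower genes, which is 15.2% of those without overlap in control and 34.4% of those without overlap in collateral arteries, the latter being 1.67% of all genes. Among them were Ptprj, Ptprm, Klf6, Egr2, Id1, Nr4a3, Dusp1, Nfkb1, Sdc4, Lox, Lamb2, Cst3, Cacnb2, F2r and Gja5. Of these, Ptprj was tested mainly through WKY arrays. Cst3 was barely separate in control arteries, at 12608.2 on SHR control 3 against 12611.6 on WKY control 3. On the higher side there were 13 such genes, 6.63% and 21.0% of the higher genes without overlap in control and in collateral arteries (1.62% of all genes in the latter), among them Cd74, RT1-A3, Lyve1, Cma1, Blvra, Entpd2, Cstb and Kcnd3. RT1-A3 and Kcnd3 were below the 40th percentile on every WKY array of both vessel types, so they were tested only through SHR arrays. For Cd74 the gap in control arteries was slight, 255.1 on SHR control 4 against 254.0 on WKY control 2. For 1 gene, Tgfbrap1, named after its values were seen, the direction without overlap was opposite, higher in SHR control and lower in SHR collateral arteries.

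A test of whether the strain difference itself differed between vessel types called 0 of 6512 probe sets (limma, smallest adjusted p = 0.9997), with 124 at an unadjusted p under 0.05 (1.9%), fewer than the 325.6 expected by chance. No single gap was therefore established. Apart from Tgfbrap1, the genes described here that had an unadjusted p under 0.05 for it were Prps2 at 2.16 in control and -0.57 in collateral arteries (unadjusted p of the gap 0.00641), Acads, a fatty acid oxidation enzyme, at 1.23 and -0.55 (0.0131), Slc8a1 at -1.39 and 0.70 (0.0186), Timp1 at 0.65 and -0.24 (0.0224), Prrg1 at 1.80 and 0.23 (0.0319), Syp at 2.25 and 0.67 (0.0354) and Dbp at 2.88 and 0.23 (0.0405). For Icam2 the gap was -1.66 ± 0.84 (unadjusted p = 0.0624).

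**Figure D5:**
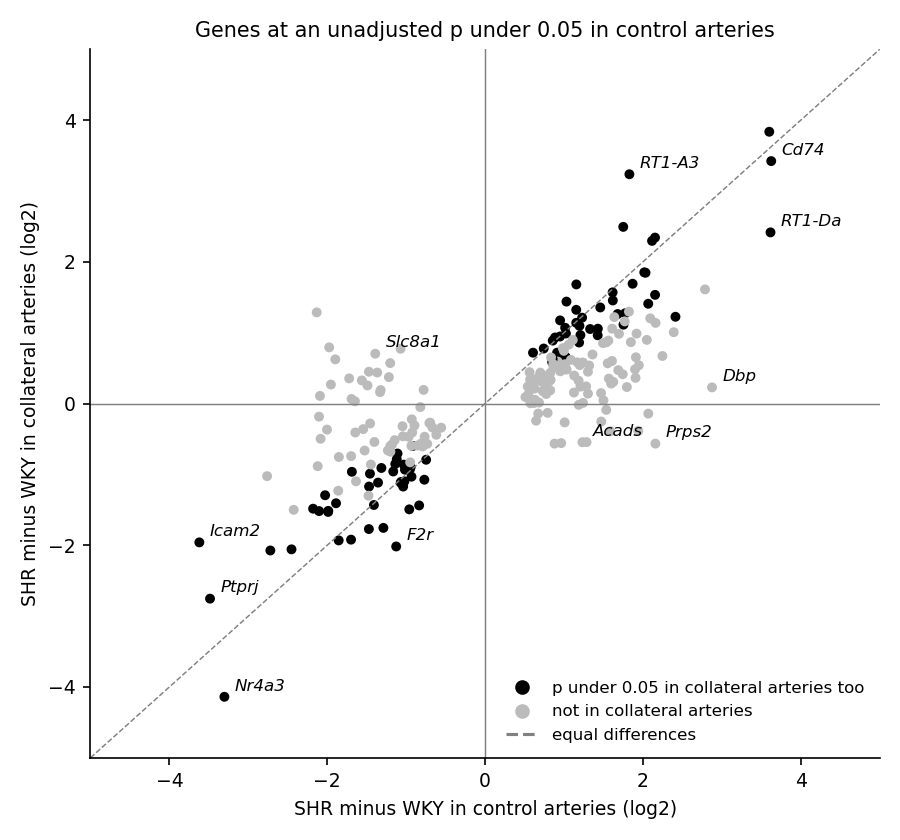
Strain difference in control arteries (horizontal) and in collateral arteries (vertical), SHR minus WKY on the log2 scale, for the 245 genes (6.41% of those tested) at an unadjusted p under 0.05 in control arteries, black where that also held in collateral arteries. Most points lie in the lower left and upper right parts of the plot, with a median nearer 0 in collateral arteries, where Dbp, for example, stood at 0.23 against 2.88.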

How the data were processed

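RNA from rat mesenteric arteries was extracted with a kit for fibrous tissue and labelled as biotin cRNA by a small-sample method, per the labels' protocols. Each array has 1 deposited linear signal per probe set, made by the authors with GCOS and MAS5 according to the submitters' processing notes, which list no version. The mean after trimming 2% was 1001.1 to 1001.7 on every array, so arrays had been scaled alike, which makes levels relative to total labelled RNA. Groups came from sample titles.

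Signals below 1 (12 values) were set to 1 before the log2 step, and 59 control probe sets of the array were dropped. A probe set was tested if at or above its array's 40th percentile on 3 or more of the 15 arrays, which left 6512 of 8740. limma 3.58.1 in R 4.3.3 fitted 4 group means over all 15 arrays (11 residual and 7.19 prior degrees of freedom, variance trend), with two-sided moderated tests and Benjamini-Hochberg adjustment at 0.05 over probe sets. All unadjusted p-values on genes are from this fit. The fit was tested on simulated data, quoted in the text. For arrays their number and the signal over background limit the precision.

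Gene names came from the platform annotation: 7006 probe sets had 1 symbol, 308 several and 1426 none, and 6994 matched RefSeq genes (GRCr8) by gene identifier. A gene was read from its brightest tested probe set in the 7 control arrays. Named genes were those called, the 15 per direction of smallest p whose strains do not overlap, up to 4 members per list at an unadjusted p under 0.05 (otherwise the 2 of smallest p), and fixed genes of class II, nitric oxide, angiotensin and vessel cell types. Jun, Fos, Egr1 and Nr4a1, and the genes shown for the gap between vessel types, were picked after their values were seen. The comparison and the 43 gene lists (13 of cell types, 633 genes tested) were chosen with earlier results of these data known. Alternatives covered normalization, low values, filters, variance, arrays, replicate number as a block and the 3' to 5' ratio.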

Additional observations from a re-analysis of the deposited data

Results flagged for a closer look

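The signals of 95 named genes on the 4 SHR control arrays, those of Ptprj and Icam2 on the 4 collateral arrays of each strain and 3 array measures were searched on their own scale (log2 for signals) for 1 value far from the other 3. Of these 102 groups, 5 held such a value, where chance marks about 1 in 20. Ptprj read 114.8 on SHR control 2, against 62.3 to 67.2 on the other SHR control arrays. Nfkbia read 1474.6 on SHR control 4, against 5410.6 to 7001.2. On SHR control 3, Gstm1 read 3589.3, against 1529.4 to 1652.4. The same array had the high values of Arhgap1, at 1042.8 against 231.4 to 270.6, and of Acads, at 1056.3 against 639.7 to 655.9. Groups of 3 arrays, as in WKY control arteries, were not searched.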

How the results depend on the processing

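In control arteries, the 2 probe sets called became 0 with the 3' to 5' ratio as a covariate, with a 60th percentile filter, with a filter on the control arrays alone or with no filter. They became 1 without the variance trend, 7 with only the groups compared, 14 with array weights and 0 to 6 with 1 array left out. With array weights 684 probe sets had an unadjusted p under 0.05 there. In collateral arteries, calls rose from 0 to 26 with array weights, 2 with only the groups compared, 6 at an adjusted p under 0.10 and 0 to 7 with 1 array left out. The difference between vessel types had 0 calls under every alternative run. List medians moved to 1.24 for red cell markers (60th percentile filter), 0.036 for the renin-angiotensin system (array weights), 0.11 for matrix (mean over a gene's probe sets), and -0.33 (no filter) and -0.28 (mean over probe sets) for nitric oxide and cyclic GMP genes. With 1 array left out they ranged from -0.65 to -0.22 for nitric oxide and cyclic GMP, 0.048 to 0.27 for oxidant genes, -0.14 to 0.065 for matrix and 0.19 to 0.44 for proteases. Over 95 named genes and 29 alternatives, 2701 of 2748 values kept their direction and their side of the adjusted threshold, and 14 gained a call. The 30 that lost one were all values of Icam2 or Ptprj, each in 15 of 29 alternatives. Every other gene had missed that threshold in the main fit, so it had no call to lose. Acta2 alone changed sign, to -0.0041 with array weights and to between -0.23 and 0.22 with 1 array left out.

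The labels do not say that replicate numbers pair arrays, and the data were mixed. Deviations of same-numbered arrays correlated at 0.172, 0.0051 and -0.0403 between the strains' control arteries, at 0.306, 0.0155 and 0.168 between control and collateral arteries of WKY, and at 0.0805, 0.0629, 0.0409 and -0.0696 in SHR. Not every array correlated best with its own number, so the numbers were not used as pairs. As a fixed replicate block the number gave 4 calls in control arteries, Icam2 (adjusted p = 0.000524, limma) and Ptprj (adjusted p = 0.0474) among them, and 6 in collateral arteries. A random replicate block kept the count at 2. Signals near an array's 20th percentile, as for Ptprj in SHR, limit how large a fold can be read.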
